A study of Mus musculus with 8 samples.

Results

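The pyruvate dehydrogenase complex, the mitochondrial gate through which pyruvate enters oxidation, is switched off and on by its own kinases and phosphatases, and the transcripts of these regulators were measured in the gastrocnemius muscle of mice with an inducible active Akt1. The genes described are the 4 kinases Pdk1, Pdk2, Pdk3 and Pdk4, the phosphatase genes Pdp1, Pdp2 and Pdpr, and the subunit genes Pdha1, Pdhb and Pdhx. They were taken by exact symbol from a table of 30743 genes, and all 10 were found there. The DTG group held 4 mice that carried both the 1256[3Emut]Mck-rtTA and the TRE-myrAkt1 transgene. The controls were 4 MckrtTA mice, littermates with the Mck-rtTA transgene alone. Mice of both groups were 4 months old with the strain label Myo L8, drank doxycycline at 0.5 mg/ml for 2 weeks and were starved overnight before the muscle was taken. The treatment notes name males for the DTG group. The Mck-driven rtTA acts in a subset of muscles, of which the gastrocnemius is one, and RNA was taken from the whole muscle, so that fewer cells of a type and less RNA per cell cannot be told apart in any value here.

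Pyruvate dehydrogenase kinases phosphorylate the E1 alpha subunit of the complex and stop it, and the phosphatases remove the phosphate and restart it. PDK4 is the kinase that muscle induces in fasting, when fatty acids replace glucose as fuel, and the transcription factors of the FOXO and PPAR families are known to drive its gene. PDK2 is the widely expressed kinase that senses NADH, acetyl-CoA and pyruvate, PDK1 is a classical target of HIF-1, and PDK3 is a kinase with little expression in most tissues.

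Promoter windows of 250 bases upstream of the transcription start are given for Pdk2, the kinase with the largest fall, Pdk3, the one that rose, Pdk4, which passed in neither direction, and Pdha1, the gene of the subunit that all 4 kinases phosphorylate. The sequences are from RefSeq on GRCm38.p6, the build also called mm10. All 4 lie on the minus strand, at chr11:95041372-95041621 for Pdk2, chrX:93832151-93832400 for Pdk3, chr6:5496279-5496528 for Pdk4 and chrX:160138431-160138680 for Pdha1, and they read 5′ to 3′ towards the gene. Capitals mark matches, on either strand, to the motifs named in the next paragraph.
Pdk2: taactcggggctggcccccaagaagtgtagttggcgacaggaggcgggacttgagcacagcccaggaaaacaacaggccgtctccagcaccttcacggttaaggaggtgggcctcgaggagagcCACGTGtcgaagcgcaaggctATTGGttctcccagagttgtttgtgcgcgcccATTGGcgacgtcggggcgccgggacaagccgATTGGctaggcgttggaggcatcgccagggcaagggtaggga
Pdk3: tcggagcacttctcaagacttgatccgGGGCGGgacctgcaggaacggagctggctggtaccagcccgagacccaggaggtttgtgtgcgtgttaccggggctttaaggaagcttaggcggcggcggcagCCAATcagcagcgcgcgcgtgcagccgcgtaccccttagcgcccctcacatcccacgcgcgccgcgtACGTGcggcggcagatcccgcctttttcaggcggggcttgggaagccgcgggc
Pdk4: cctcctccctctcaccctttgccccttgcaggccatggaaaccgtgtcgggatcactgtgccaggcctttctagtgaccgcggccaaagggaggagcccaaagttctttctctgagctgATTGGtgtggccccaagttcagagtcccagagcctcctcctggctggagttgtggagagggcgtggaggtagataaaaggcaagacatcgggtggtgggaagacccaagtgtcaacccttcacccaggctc
Pdha1: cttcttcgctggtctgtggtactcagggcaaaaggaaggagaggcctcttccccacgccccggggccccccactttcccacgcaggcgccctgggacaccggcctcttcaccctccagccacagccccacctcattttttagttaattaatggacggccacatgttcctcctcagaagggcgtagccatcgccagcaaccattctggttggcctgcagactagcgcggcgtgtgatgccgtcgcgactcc

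Of the 10 genes, 9 had a promoter entry, and Pdp1 had none. The FOXO motif GTAAACA was in 0 of the 9 windows and in 3.17% of 32851 RefSeq windows of the same length. The direct repeat read by PPAR-RXR pairs, 2 copies of AGGTCA with 1 base between them, was also in 0 of the 9, against 0.0335% of all windows. TCAAGGTCA, the motif of the estrogen-related receptors, was in 0 of the 9 and in 0.387% of all. These counts say only that the letters are not in the windows. The HIF core ACGTG was in 5 of the 9 and in 16.6% of all windows, and the E-box CACGTG, which contains that core, was in 3 of the 9 and in 6.02% of all. The core was in the windows of Pdk2, Pdk3, Pdp2, Pdpr and Pdhb and not in that of Pdk1. In Pdk2, Pdp2 and Pdpr the core found was that of the E-box. A motif found is a match of letters only, and binding was not tested. The GC box GGGCGG was in 6 of the 9 (32.7% of all windows), CCAAT in 5 (33.8%) and TATAAA in 0 (12.4%). In the printed windows, Pdk2 holds 3 CCAAT boxes in reverse and 1 E-box, Pdk3 holds 1 GC box, 1 CCAAT box and 1 HIF core, Pdk4 holds 1 CCAAT box, and Pdha1 holds no match.

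Libraries of polyA RNA held an estimated 45.6 to 58.6 M reads and ran on lanes 1 and 8, each with 2 mice of either group. A deposited value, called signal, is an RSEM estimate of reads per gene scaled so that the 75th percentile of each library is 1000. In that unit 1 read is worth 1.25 to 1.68 in DTG and 2.25 to 2.97 in MckrtTA libraries. With the totals set equal instead, the median log2 fold change of all 15073 genes tested was 0.65 in place of -0.26, so that every fold change depends on the scale and is given first as deposited. Akt1, the gene that the transgene carries, averaged 53653 ± 14928 in DTG muscle and 4622 ± 471 in MckrtTA muscle (SD, n = 4 mice each) and rose (limma adjusted p = 1.67e-06). DTG mouse 253 stood apart. For 7 of the 10 genes it was the DTG mouse nearest the controls, having moved from the controls by 0.29 to 0.71 of the log2 distance that the other 3 DTG mice had moved on average, and results are given below with and without it. Muscle fibre markers summed to 4072862 to 8617323 in DTG and 16233598 to 18433327 in MckrtTA muscle (5 of 9 lower), and the 8 measured macrophage markers, all higher, summed to 51677 to 188866 in DTG and 3574 to 4381 in MckrtTA muscle. Fibroblast markers (4 of 5 higher) summed to 128124 to 587196 in DTG and 71498 to 87834 in MckrtTA muscle, and proliferation markers (4 of 4 higher) to 1980.4 to 10670.04 in DTG and 55.7 to 162 in MckrtTA muscle. Their part in the values below was not tested.

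On the deposited scale 7 of the 10 regulator and subunit genes fell, 1 rose, and 2 did not pass. All 10 genes were among those tested with limma on log2(signal + 10), with a call at a Benjamini-Hochberg adjusted p under 0.005 over all genes and a fold change of 2 or more. The gene that rose was Pdk3, where the background over all genes tested was 14.6% called higher. Pdk1, Pdk2, Pdp1, Pdp2, Pdpr, Pdha1 and Pdhb fell, where 16% of all genes were called lower. Pdk4 and Pdhx passed in neither direction. The 4 DTG values lay below all 4 MckrtTA values for 8 genes (40.4% of all genes tested) and above them for 1 gene (22.2% of all). The median log2 fold change of the 10 genes was -1.07 on the deposited scale. Scaling by a trimmed mean of log ratios gave -0.82 for the 10 genes and -0.02 for all genes, a median of ratios gave -0.78 for the 10 and 0.02 for all, and equal totals gave -0.14 for the 10 and 0.65 for all. These scalings left 3, 3 and 0 of the 10 called lower, so that the count of falls rests on the deposited scale. Pdk3 was called higher on each of them. Each also moved the median of all genes upwards from -0.26, so a gene already called higher was likely to stay so.

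**Figure D1:**
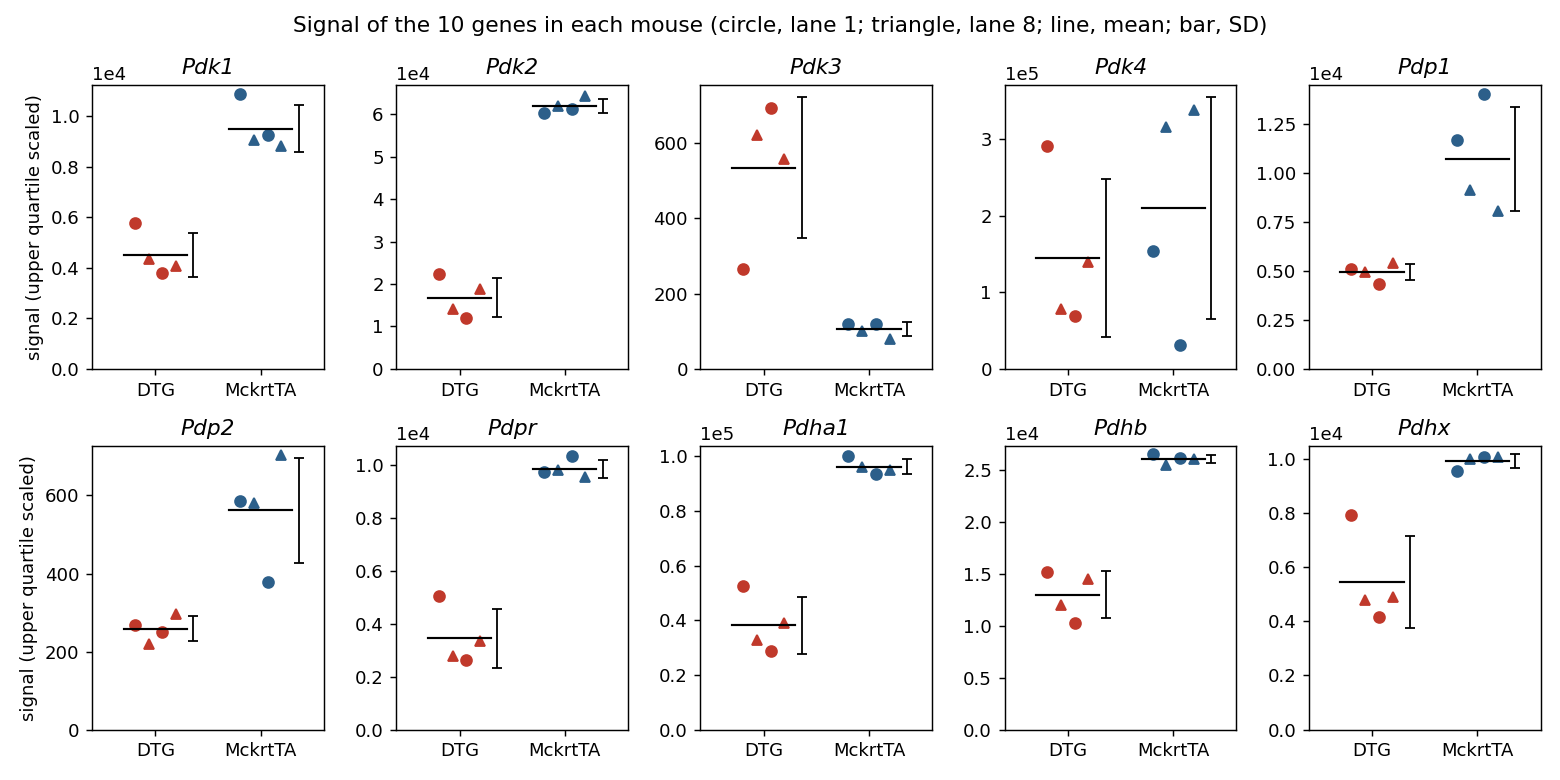
Signal of the 10 genes in each mouse on a linear axis from 0, DTG mice to the left and MckrtTA mice to the right in each panel, with lane 1 as circles, lane 8 as triangles, a line at the group mean and a bar for the SD. Pdk3 is higher in all 4 DTG mice, Pdk4 overlaps between the groups, and the other 8 genes are lower in all 4 DTG mice on the deposited scale.

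**Figure D2:**
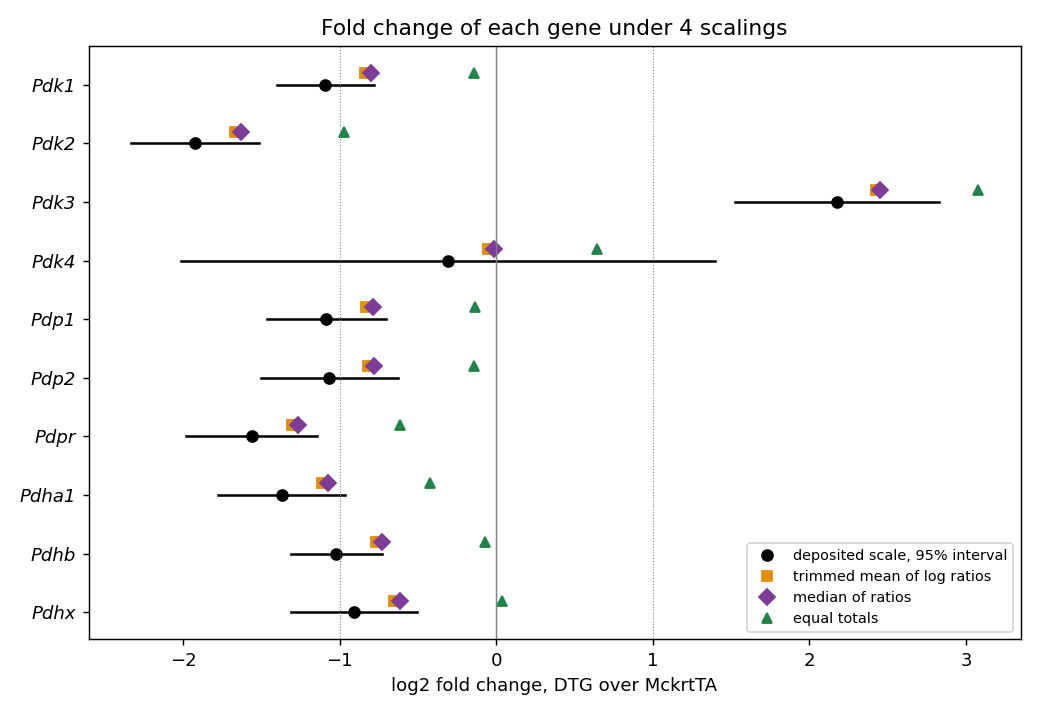
Log2 fold change of DTG over MckrtTA for the 10 genes on the deposited scale, with 95% confidence intervals from limma, and the same value with a trimmed mean, a median of ratios and equal totals, with dotted lines at 2 fold. Pdk3 lies at 2.17 and Pdk2 at -1.92, the interval of Pdk4 runs from -2.01 to 1.396, and equal totals move every gene upwards, Pdk4 to 0.64 and Pdhx to 0.04.

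Per-mouse signals are given below in the order 283, 282, 306 and 253 for DTG mice and 255, 280, 281 and 307 for MckrtTA mice. Pdk2, at chr11:95026258-95041371, had the largest fall among the 10. Its signal was 12079, 14009, 18880.3 and 22278 in DTG muscle, against 60314, 61979, 61313 and 64313 in MckrtTA muscle. The controls lay within 1.07 fold of one another, and the highest DTG mouse, 253, was far below the lowest control. Mean Pdk2 signal was 16812 ± 4633 in DTG muscle and 61979.6 ± 1699 in MckrtTA muscle (SD, n = 4 mice each), a log2 fold change of -1.92 (standard error 0.18, limma adjusted p = 2.09e-05). Without mouse 253 it was -2.07. Pdk2 was also called lower under scaling by a trimmed mean or by a median of ratios. Equal totals left it at -0.97, lower in DTG but just short of 2 fold. The tested genes closest to the Pdk2 pattern over the 8 libraries, by root mean square distance of log2(signal + 10) less the control mean, were Fam131a (0.073), Spnb1 (0.073), Aldh6a1 (0.076) and Rab12 (0.083). Each of these had a log2 fold change between -1.89 and -1.93, and closeness to the value of Pdk2 follows from the choice by distance.

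Pdk1, the HIF-1 responsive kinase, fell less. At chr2:71873272-71903858, it had a signal of 3783, 4354, 4081 and 5765 in DTG muscle, against 10873, 9047, 9239 and 8839 in MckrtTA muscle. The groups do not overlap, and mouse 253 is again the DTG mouse nearest the controls. Mean Pdk1 signal was 4496 ± 878 in DTG muscle and 9499.5 ± 930.1 in MckrtTA muscle (SD, n = 4 mice each), a log2 fold change of -1.09 (standard error 0.14, limma adjusted p = 0.000104), and -1.22 without mouse 253. With equal totals it was -0.14, and its call was lost under every rescaling tried.

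Pdk3 was the only kinase that rose. It lies on the X chromosome at chrX:93764616-93832095, and its signal was 693, 622, 558 and 266 in DTG muscle, against 118, 101, 120.3 and 80.1 in MckrtTA muscle. Every DTG mouse was above every control, and mouse 253 had the lowest DTG value. Mean Pdk3 signal was 535 ± 187 in DTG muscle and 105 ± 18.7 in MckrtTA muscle (SD, n = 4 mice each), a log2 fold change of 2.17 (standard error 0.29, limma adjusted p = 0.000141). Without mouse 253 this was 2.47, and within lanes it was 1.77 on lane 1 and 2.58 on lane 8, the lane 1 value with 2 mice a group not passing (limma adjusted p = 0.0517). The summed macrophage markers were 188866, 155073, 130532 and 51677 in DTG mice 283, 282, 306 and 253, the same order of mice as Pdk3. Summed fibroblast and proliferation markers had this order too. Summed myoblast and satellite cell markers did not, at 10440, 10900, 15400 and 12162 in these mice. Nor did the sums for endothelium, adipocytes, Schwann cells or erythroid cells. The summed muscle fibre markers had the reverse of the Pdk3 order, as did Pdk2, Pdk4, Pdpr, Pdha1, Pdhb and Pdhx. The share of all tested genes with either order was not counted, so neither order is read as particular to these genes. Single macrophage markers did not all follow their sum, and Itgam was highest in mouse 253. The fibroblast markers Pdgfra, Lum and Dcn did not follow theirs, and among DTG mice were highest in mouse 282. Which cells carry the Pdk3 transcript was not tested.

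Pdk4, the fasting-induced kinase, differed more between mice of a group than between the groups. At chr6:5483351-5496278, it had a signal of 69435, 78305, 139764 and 291760.2 in DTG muscle, against 154581, 316440.2, 31563 and 338477 in MckrtTA muscle. The lowest and the highest of all 8 values were both from controls, mice 281 and 307, and the groups overlap. The highest control was 10.7 times the lowest, and the highest DTG mouse 4.20 times the lowest. On the log2 scale the SD was 0.95 in DTG mice, where 95.6% of tested genes had a smaller SD, and 1.59 in MckrtTA mice, where 99.8% did. By contrast the control values of Pdk2, Pdpr, Pdha1, Pdhb and Pdhx all lay within 1.04 to 1.08 fold. Mean Pdk4 signal was 144816 ± 102833 in DTG muscle and 210265 ± 144622 in MckrtTA muscle (SD, n = 4 mice each). Its log2 fold change was -0.31 (standard error 0.76, limma adjusted p = 0.728), with a 95% interval from -2.01 to 1.396 that holds both a fall and a rise of more than 2 fold.

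The sign of the Pdk4 difference depended on the mice used. It was 0.05 without control 280 and 0.08 without control 307, and neither passed. Without control 281, the lowest, it was -1.06, and without DTG mouse 253 it was -0.73, and these did not pass. Among the lane 8 mice, Pdk4 was 78305 and 139764 in DTG muscle, against 316440.2 and 338477 in MckrtTA muscle, and the log2 fold change of -1.65 was called lower (limma adjusted p = 0.0019). Lane 1 went the other way, with 69435 and 291760.2 in DTG muscle, against 154581 and 31563 in MckrtTA muscle, and a log2 difference of 1.03 (limma adjusted p = 0.467). The difference between the lanes, tested in limma after these values had been seen, was -2.67 with a 95% interval from -5.54 to 0.20 (adjusted p = 0.983 over all genes). None of 15073 genes passed that test at an adjusted p under 0.05 with limma, and 337 had an unadjusted p under 0.05.

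The tested genes nearest to Pdk4 over the 8 mice included the fasting gene Ucp3. The 4 nearest by the same distance were Ucp3 (0.61), Arrdc3 (0.63), AK133808 (0.67) and Shroom3 (0.68), all farther away than the neighbours of Pdk2. Ucp3, a mitochondrial carrier that muscle raises in fasting, had a signal of 5612, 8483, 8544 and 14875 in DTG muscle, against 20613, 28590.3, 5149 and 27967 in MckrtTA muscle. Arrdc3, an arrestin-domain protein, had 3508, 4271, 5661 and 10925 in DTG muscle, against 5202, 12410.3, 4481 and 15314 in MckrtTA muscle. Both had control 281 as the lowest of the controls and mouse 253 as the highest of the DTG mice, as Pdk4 did. A choice by distance to Pdk4 favours such a like order, so it is no separate result. The 4 genes were called in neither direction, with limma adjusted p from 0.136 to 0.932. Among 18 listed fasting genes of muscle, Pdk4 not included, control 281 was the lowest control for 16. Mouse 253 was the highest DTG mouse for 5 of the 18, and mouse 306 for 9. Ucp3 is among the 18. The share of all tested genes with these mice lowest or highest was not counted, so the counts are not read as particular to fasting genes.

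**Figure D3:**
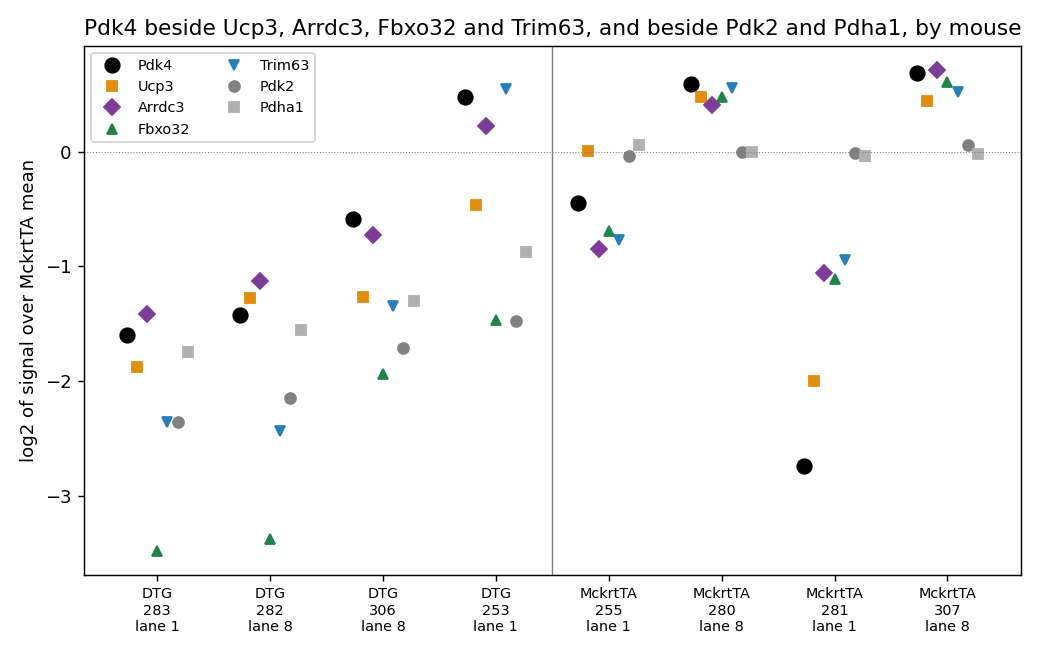
Log2 of signal over the MckrtTA mean for Pdk4, Ucp3, Arrdc3, Fbxo32, Trim63, Pdk2 and Pdha1 in each of the 8 mice, DTG to the left. Pdk4 runs from its lowest in control 281, 31563, to its highest in control 307, 338477, while Pdk2 and Pdha1 lie close to 0 in all 4 controls; Fbxo32 and Trim63 were added after their values had been seen.

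The make-up of the kinase transcripts was compared per length, as signal per kilobase of the longest annotated transcript of each gene. On this scale the mean level of Pdk4 was 41566 ± 29516 in DTG and 60352 ± 41510 in MckrtTA muscle (SD, n = 4 mice each). Pdk2 stood at 7485 ± 2063 in DTG and 27596 ± 757 in MckrtTA muscle. Pdk1 came next with 867 ± 169 in DTG and 1832 ± 179 in MckrtTA muscle, and Pdk3 was lowest with 253 ± 88.6 in DTG and 49.6 ± 8.83 in MckrtTA muscle. The order Pdk4, Pdk2, Pdk1, Pdk3 held for the means of both groups, but in control 281 Pdk2 was above Pdk4. Pdk4 made up 75.6%, 75.3%, 80.9% and 88.2% of the summed kinase level in DTG muscle, against 60.5%, 75.6%, 23.7% and 76.2% in MckrtTA muscle, so the groups overlap. Pdk2 made up 20.4%, 20.9%, 17.0% and 10.5% in DTG muscle, against 36.6%, 23.0%, 71.5% and 22.5% in MckrtTA muscle. Every DTG mouse thus had a smaller Pdk2 share than any control, though the gap between mouse 282 and control 307 was small. The share of Pdk3 was 0.13% to 1.24% in DTG muscle and 0.03% to 0.15% in MckrtTA muscle. These shares do not move with the scaling of a library, and they carry the spread of Pdk4.

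**Figure D4:**
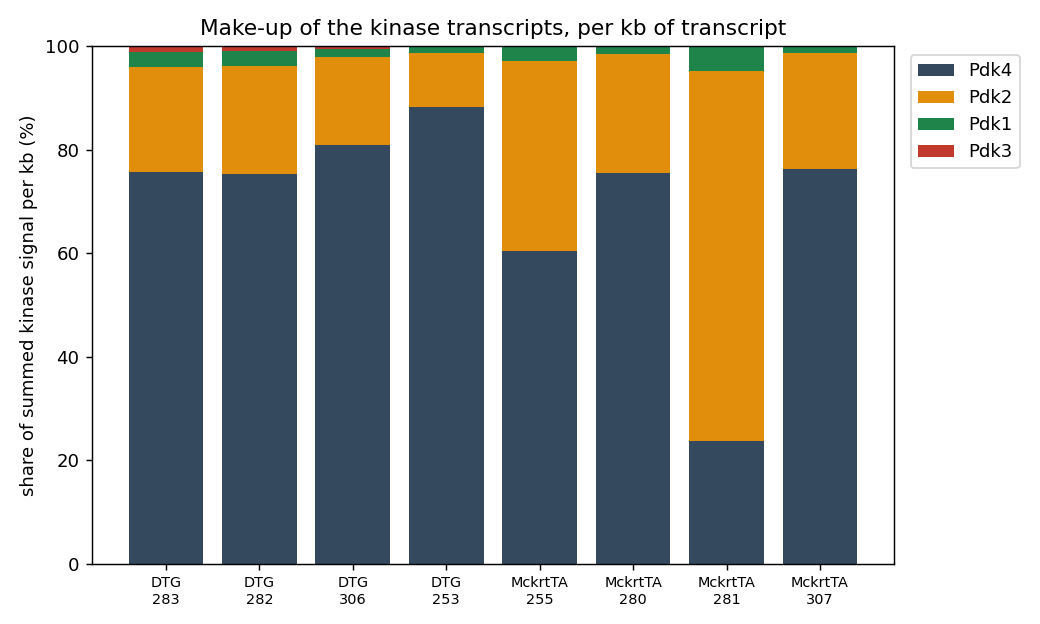
Share of each kinase in the summed signal per kilobase of Pdk1, Pdk2, Pdk3 and Pdk4, in percent, 1 bar a mouse, DTG mice to the left of MckrtTA mice. Pdk2 takes 10.5% to 20.9% in DTG mice and 22.5% to 71.5% in MckrtTA mice, the highest share being that of control 281.

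All 3 phosphatase genes fell on the deposited scale, while equal totals put Pdp1 and Pdp2 at -0.14 and Pdpr at -0.61 with no call, and setting Pdha1 equal turned Pdp1 to 0.29 and Pdp2 to 0.27. With Pdha1 set equal the median of all genes was 1.06, so both lay under it. Pdp1, the catalytic subunit that calcium activates and that muscle expresses most, lies at chr4:11958185-11966450. Its signal was 4354, 4946, 5385 and 5087 in DTG muscle, against 11662, 9121, 14002 and 8033 in MckrtTA muscle. Here the controls spread more than the DTG mice and mouse 253 lay among the other DTG mice. Mean Pdp1 signal was 4943 ± 433 in DTG muscle and 10705 ± 2673 in MckrtTA muscle (SD, n = 4 mice each), a log2 fold change of -1.08 (standard error 0.17, limma adjusted p = 0.000352). Without mouse 253 it was -1.10, and without control 281, the highest, it was -0.94 and missed the fold minimum. The value was -1.44 on lane 1 and -0.73 on lane 8, and neither was called.

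Pdp2, the other catalytic subunit, was the scarcest of the phosphatase transcripts. At chr8:104591468-104596849, its signal was 249, 219.7, 296 and 268 in DTG muscle, against 585, 579.8, 378 and 703.3 in MckrtTA muscle. The groups are separate, with control 281 the lowest of the controls. Mean Pdp2 signal was 258 ± 31.9 in DTG muscle and 562 ± 135 in MckrtTA muscle (SD, n = 4 mice each), a log2 fold change of -1.07 (standard error 0.19, limma adjusted p = 0.000937). Without mouse 253 it was -1.09. The call was lost without DTG mouse 282 (-0.99) and without control 307 (-0.95), both just under 2 fold. Pdpr, the regulatory subunit that restrains PDP1, lies at chr8:111094745-111135144 and fell most among the phosphatase genes. Its signal was 2632, 2783, 3342 and 5059.99 in DTG muscle, against 9739.6, 9812, 10335 and 9563 in MckrtTA muscle. Mean Pdpr signal was 3454 ± 1113 in DTG muscle and 9862 ± 332 in MckrtTA muscle (SD, n = 4 mice each), a log2 fold change of -1.56 (standard error 0.19, limma adjusted p = 7.33e-05), and -1.76 without mouse 253. Pdpr was also called lower under a trimmed mean and under a median of ratios, and Pdp1 and Pdp2 were not. Per kilobase the 3 stood in the order Pdp1 (1177 ± 103 in DTG and 2548 ± 636 in MckrtTA muscle), Pdpr (699.5 ± 225 in DTG and 1997 ± 67.3 in MckrtTA muscle) and Pdp2 (45.4 ± 5.61 in DTG and 98.7 ± 23.7 in MckrtTA muscle). In MckrtTA muscle the levels of Pdp1 and Pdpr lay within the spread of Pdp1.

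Of the 3 subunit genes, Pdha1 and Pdhb fell on the deposited scale and Pdhx did not pass, and with equal totals none was called (-0.42 for Pdha1, -0.07 for Pdhb and 0.04 for Pdhx). Pdha1 encodes E1 alpha, the subunit with the phosphorylation sites, at chrX:160122219-160138336. Its signal was 28606, 32676, 38953 and 52438 in DTG muscle, against 100174, 96139.6, 93621 and 94786 in MckrtTA muscle. The controls lay within 1.07 fold, and the DTG mice spread from 283, the lowest, to 253, the highest. Mean Pdha1 signal was 38168 ± 10422 in DTG muscle and 96180.1 ± 2854 in MckrtTA muscle (SD, n = 4 mice each), a log2 fold change of -1.37 (standard error 0.18, limma adjusted p = 0.000133), and -1.54 without mouse 253. Its nearest genes by pattern were Cox5a (0.032), Cs (0.039), Gbas (0.040) and Ndufa4 (0.050). Cs encodes citrate synthase and Cox5a and Ndufa4 encode proteins of cytochrome c oxidase. All 4 had log2 fold changes between -1.36 and -1.41, and closeness to the value of Pdha1 follows from the choice by distance.

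Pdhb, which encodes E1 beta, lies at chr14:8165991-8172992. Its signal was 10233, 12048, 14506 and 15153 in DTG muscle, against 26550.5, 25504, 26160.5 and 26121 in MckrtTA muscle. Mean Pdhb signal was 12985 ± 2270.3 in DTG muscle and 26084 ± 433 in MckrtTA muscle (SD, n = 4 mice each), a log2 fold change of -1.02 (standard error 0.13, limma adjusted p = 0.000104). This is close to the fold minimum, and without DTG mouse 283 (-0.91) or 282 (-0.99) the call was lost, while without mouse 253 it was -1.10. Pdhx, the gene of the E3 binding protein that tethers dihydrolipoamide dehydrogenase to the core, lies at chr2:103021057-103073513. Its signal was 4154, 4797, 4879.6 and 7936 in DTG muscle, against 9551, 9993, 10057 and 10053 in MckrtTA muscle. All DTG mice were below all controls, but at a log2 fold change of -0.91 (standard error 0.18, limma adjusted p = 0.00143) it missed the 2 fold that a call needs. Without mouse 253 it was -1.11 and passed (limma adjusted p = 6.0e-07). The other subunit genes were Dlat (E2), with a log2 fold change of -1.10 (standard error 0.10, limma adjusted p = 1.86e-05), and Dld (E3), with -1.11 (standard error 0.15, limma adjusted p = 0.000147). Dlat and Dld both fell on the deposited scale, and neither was called under a trimmed mean, a median of ratios, equal totals or with Pdha1 set equal. Without DTG mouse 283 Dld stood at -0.99 and missed the fold minimum. Pdha2, the testis form of E1 alpha, is listed at 0 in all 8 libraries.

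Ratios within a library do not depend on how libraries are scaled to each other, and they were taken for each gene over Pdha1, the substrate of the kinases. They compare signals that are not corrected for length, so only the groups can be compared. Most genes stood higher relative to Pdha1 in DTG muscle, with all DTG mice above all controls for 70% of the other tested genes and below them for 2.93%, and a median log2 fold change of 1.06 over all genes with Pdha1 set equal. Pdk2 over Pdha1 was 0.440 ± 0.0298 in DTG and 0.645 ± 0.0319 in MckrtTA muscle (SD, n = 4 mice each), with all DTG mice below all controls. Pdk2 was thus also lower relative to Pdha1. Pdk3 over Pdha1 was 0.0157 ± 0.00813 in DTG and 0.00109 ± 0.00019 in MckrtTA muscle, with all DTG mice above. Pdpr over Pdha1 was 0.0899 ± 0.00539 in DTG and 0.103 ± 0.00556 in MckrtTA muscle, the DTG mice below the controls by a narrow gap. The partner subunits ran the other way, with Pdhb over Pdha1 at 0.347 ± 0.0392 in DTG and 0.271 ± 0.0073 in MckrtTA muscle. Pdhx over Pdha1 was 0.142 ± 0.0116 in DTG and 0.103 ± 0.00543 in MckrtTA muscle, and for both subunits all DTG mice were above all controls. With Pdha1 set equal, Pdhb stood at 0.35 and Pdhx at 0.46, both under that median of all genes. For Pdk1, Pdp1 and Pdp2 the ratio to Pdha1 overlapped between the groups.

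Pdk4 over Pdha1 was 3.49 ± 1.49 in DTG and 2.19 ± 1.52 in MckrtTA muscle and overlapped. Pdk4 over Pdk2, the balance between the 2 most abundant kinases, was 5.75, 5.59, 7.40 and 13.1 in DTG muscle, against 2.56, 5.11, 0.515 and 5.26 in MckrtTA muscle. All DTG mice were above all controls, and the gap between DTG mouse 282 (5.59) and control 307 (5.26) is small beside the spread within either group. The share of all tested genes that lie above the controls in this way over Pdk2 was not counted. Over Pdha1, which fell less than Pdk2, it was 70%, so the separation is not read as a trait of Pdk4. Pdk4 over Pdp1 was 28.8 ± 19.6 in DTG and 23.1 ± 18.5 in MckrtTA muscle and overlapped. Pdk2 over Pdp1 was 3.37 ± 0.748 in DTG and 6.09 ± 1.63 in MckrtTA muscle, with the highest DTG mouse level with the lowest control. Pdp2 over Pdp1, the ratio of the 2 catalytic phosphatases, was 0.0523 ± 0.00559 in DTG and 0.0571 ± 0.0253 in MckrtTA muscle and overlapped, with controls from 0.0270 to 0.0875.

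**Figure D5:**
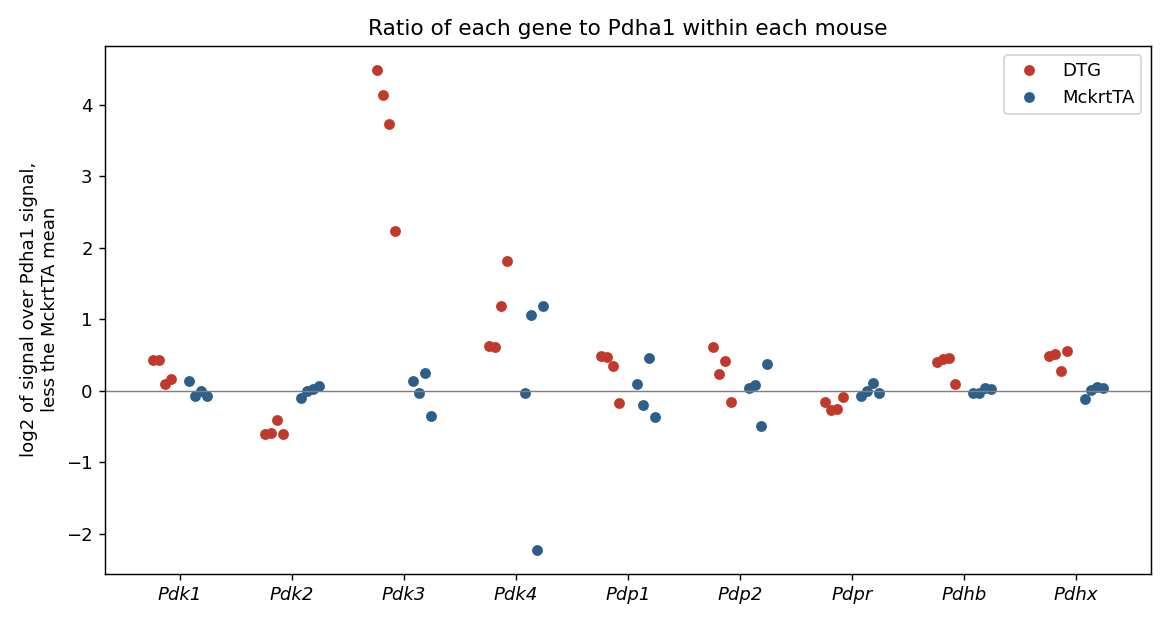
Log2 of each gene's signal over that of Pdha1 in the same library, less the MckrtTA mean, 1 point a mouse, DTG mice to the left of MckrtTA mice. Pdk3, Pdhb and Pdhx lie above the controls in all 4 DTG mice, Pdk2 and Pdpr lie below them, and Pdk1, Pdk4, Pdp1 and Pdp2 overlap.

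Genes around the complex were counted by list on the deposited scale, with 14.6% of all genes called higher and 16% lower. Of 11 genes that supply or use pyruvate, 6 fell, 1 rose and 4 did not pass, with a median log2 fold change of -1.28. With equal totals 2 of the 11 were called lower, and with Pdha1 set equal 0 were and 3 were called higher. Both genes of the mitochondrial pyruvate carrier fell on the deposited scale but were not called with equal totals, with log2 fold changes of -1.64 for Mpc1 (limma adjusted p = 6.56e-05) and -1.499 for Mpc2 (limma adjusted p = 3.92e-05). Pyruvate carboxylase, Pcx, fell too, at -2.19 (standard error 0.18, limma adjusted p = 8.92e-06). The 1 that rose was the monocarboxylate transporter Slc16a7, at 1.64 (standard error 0.37, limma adjusted p = 0.00317), a call lost on leaving out any mouse but 253 (1.37 to 1.69).

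The sister complexes, which share the E3 subunit and of which the branched-chain complex has a kinase and a phosphatase of its own, had 7 of 9 genes called lower on the deposited scale, 2 not called and a median of -1.28. Bckdha and Bckdhb, the E1 genes of the branched-chain complex, stood at -1.36 (standard error 0.13, limma adjusted p = 1.94e-05) and -1.44 (standard error 0.12, limma adjusted p = 8.92e-06). Ppm1k, the phosphatase of that complex, stood at -1.27 (standard error 0.12, limma adjusted p = 1.74e-05). With equal totals 0 of the 9 were called lower, and with a median of ratios 3.

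Among 17 regulators known to act on Pdk4 or Pdk1 transcription, 10 fell, 2 rose and 5 did not pass, with a median of -1.17. Foxo4, a FOXO factor, stood at -2.27 (standard error 0.16, limma adjusted p = 4.58e-06), Rxra, the partner of the PPARs, at -1.80 (standard error 0.09, limma adjusted p = 9.16e-07), and Esrra, an estrogen-related receptor, at -1.39 (standard error 0.10, limma adjusted p = 5.79e-06). Myc (1.76, standard error 0.16, limma adjusted p = 1.76e-05) and Hif1a (1.09, standard error 0.15, limma adjusted p = 0.000157) rose, and Hif1a was 0.99 and not called without DTG mouse 282. With equal totals 2 of the 17 were called lower. Of 10 HIF-1 target genes, 3 fell on the deposited scale, 0 rose and 7 did not pass, with a median of -0.46, while with equal totals 0 of the 10 were called lower and 2 higher. Those that fell as deposited were Vegfa (-1.40, standard error 0.10, limma adjusted p = 5.37e-06), the autophagy receptor Bnip3 (-1.78, standard error 0.22, limma adjusted p = 0.000104) and the carbonic anhydrase Car9 (-1.46, standard error 0.20, limma adjusted p = 0.000162). Higd1a, at -0.9994 (standard error 0.13, limma adjusted p = 0.000128), was just under the fold minimum.

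Of the 18 fasting genes of muscle under PPAR or FOXO, 3 rose, 3 fell and 12 did not pass on the deposited scale, with a median of -0.64. Both counts are near the shares of all genes tested, 14.6% called higher and 16% lower. Those that rose were the lipid droplet gene Plin2 (2.34, standard error 0.13, limma adjusted p = 1.94e-06), the carrier Ucp2 (3.56, standard error 0.28, limma adjusted p = 7.48e-06) and the lipase inhibitor Angptl4 (3.67, standard error 0.57, limma adjusted p = 0.000357). Those that fell were Cpt1b, the muscle gate of fatty acid entry into mitochondria (-1.38, standard error 0.17, limma adjusted p = 0.000103), Mlycd, which breaks down malonyl-CoA (-1.17, standard error 0.21, limma adjusted p = 0.000849), and the ubiquitin ligase Fbxo32 (-2.39, standard error 0.54, limma adjusted p = 0.00335). Fbxo32 lost its call without DTG mouse 283 or 282 or without control 255, 280 or 307 (-2.56 to -2.08). Without control 281, the mouse with the lowest Pdk4, 5 of the 18 were called lower, among them Ucp3 at -1.53, and with equal totals 0 were. The summed macrophage and fibroblast markers were higher in every DTG mouse than in any control, as given above, and their part in the rise of Plin2, Ucp2 and Angptl4 was not tested.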

How the data were processed

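The authors mapped paired reads of polyA RNA to mm10 transcripts with RSEM, and their processing notes also name BWA. They deposited the estimates as signal scaled to an upper quartile of 1000, and compared the groups with edgeR on reads, which are not used here. Only 88.3% to 89.5% of low values came out as whole reads (tolerance 0.1), so reads were not recovered and no count test was run. Groups come from the genotype labels and lanes from the run names. In R 4.3.3 with limma 3.58.1, log2(signal + 10) was fitted with a variance trend and no covariate for the 15073 genes that reached a signal of 25 in at least 3 of 8 libraries, over 4 mice a group. The test was tested on simulated data that had equal dispersion in both groups, unlike these data. No label says which mice shared a litter. The p-values rest on the spread between these mice, pooled over both groups and moderated by limma across genes. The median SD of log2 signal over all genes was 0.27 in DTG and 0.15 in MckrtTA mice, a difference that the common variance does not represent.

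Named are all 10 members, from each list the 3 smallest adjusted p-values, all of a list of 5 or fewer, and 4 genes nearest to Pdk4, Pdk2 and Pdha1. Called genes are also named where a list had at most 5 in a direction, chosen after their values were seen. Some genes that the rule takes, and the list that holds them, are not reported here. Members and lists were chosen with earlier results of these data known. Alternatives changed the amount added to 1 or 50, the minimum signal, the scaling, the moderation, the thresholds and the lanes, and left out each mouse in turn. The signal per kilobase uses the longest GENCODE transcript matched to each gene, which may not be the isoform counted. In total 0 columns of libraries were left unused.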

Additional observations from a re-analysis of the deposited data

Results flagged for a closer look

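In 3 cases a value stood far from the other mice of its group by Dixon's 95% criterion, out of 118 groups of 4 mice looked at, where chance gives about 5%. The lowest MckrtTA value of Pdhx, 9551 in mouse 255, lay below 9993 to 10057 in the other controls. The highest DTG value of Vegfa was 7546 in mouse 253, with the others at 6366 to 6504. The ratio of Pdk2 to Pdha1 was 0.485 in DTG mouse 306 and 0.422 to 0.429 in the other DTG mice, and all 4 lay below every control.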

How the results depend on the processing

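The 10 genes gave 7 calls lower and 1 higher, and the scale decided most of them. With equal totals 0 were lower, 3 were under a trimmed mean and under a median of ratios (Pdk2, Pdpr and Pdha1 in both), and 0 with Pdha1 set equal or with lane 1 alone, which also left 0 higher. Lane 8 alone gave 7 lower, with Pdk4 and Pdhx in place of Pdp1 and Pdhb, and 1 higher, and over all genes 1895 higher and 2494 lower. Leaving out 1 mouse gave 5 to 8 lower and 1 higher. Over all genes tested, 2207 were higher and 2405 lower. The higher count was 4649 with equal totals, 7306 with Pdha1 set equal, 36 with lane 1 alone and 3858 at an adjusted p under 0.05 with no minimum fold. The lower count was 302 with equal totals, 1402 with a trimmed mean, 1281 with a median of ratios, 104 with Pdha1 set equal, 1 with lane 1 alone, 6645 at an adjusted p under 0.05 and 4971 at 0.005 with no minimum fold. Of all calls, 47.9% were higher as deposited, 93.9% with equal totals, 65.4% with a trimmed mean, 68.0% with a median of ratios and 98.6% with Pdha1 set equal. With Pdha1 set equal the log2 fold changes turned to 0.28 for Pdk1, 1.06 for Pdk4, 0.29 for Pdp1, 0.27 for Pdp2, 0.35 for Pdhb and 0.46 for Pdhx. With equal totals they turned to 0.64 for Pdk4, 0.038 for Pdhx, 0.38 for Arrdc3 and 0.48 for AK133808. With lane 1 alone they turned to 1.03 for Pdk4, 0.36 for Arrdc3 and 0.11 for AK133808, and with lane 8 alone to -0.58 for Shroom3. Leaving out 1 mouse, Pdk4 ran from -1.06 to 0.078 (0.046 without control 280) and Shroom3 from -0.27 to 0.23 (-0.19 without DTG mouse 253), and the log2 difference of the ratio Pdk4 over Pdp1 ran from -0.12 to 1.29 and that of Pdp2 over Pdp1 from -0.33 to 0.24 (0.067 without DTG mouse 282 and 0.084 without control 280). Apart from the scaling, which moves the groups' offset by construction, the cause was not tested. Pdp2 also missed the fold minimum with 50 added (-0.97). No paired analysis was possible because the groups share no mouse numbers and no label says which mice shared a litter. Mouse numbers that lie close across the groups, such as DTG 306 and control 307, were not taken as a sign of a shared litter. Depth limits the scarcest gene most, with a lowest Pdk3 signal of 80.1 in control 307, where 1 read is worth 2.97.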
